A study of Mus musculus with 16 samples.

Results

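The tissue inhibitors of metalloproteinases, Timp1, Timp2, Timp3 and Timp4, were followed in whole lungs of C57BL/6 mice aged 9 to 12 weeks. They were taken by symbol, and where a symbol had several probes the one whose mean over the 16 arrays was highest was used. They are 4 of the 20863 genes measured, and all 4 were found. Mice received LNA-miR-199a-5p or LNA-control by the airway in doses of 5 mg/kg. Instillations were given 4 and 2 days ahead of PBS or of bleomycin at 1 unit/kg, with a further one 4 days later. The 16 arrays comprised 5 of bleomycin with LNA-miR-199a-5p, 5 of bleomycin with LNA-control, 3 from PBS with LNA-miR-199a-5p, and 3 from PBS with LNA-control. All animals therefore carried an LNA and 3 instillations of it, and there was no group without one. When the lungs were taken and the mice's sex are not given in the labels, and nothing in the labels says that replicates are separate animals, so p-values measure the spread between these samples, which may be technical.

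The TIMPs are small secreted proteins that bind the catalytic site of matrix metalloproteinases and so limit the breakdown of collagen and other matrix. Timp1 is inducible by inflammatory and growth signals, Timp2 is widely and steadily expressed and takes part in the activation of proMMP2 on the cell surface, Timp3 is held in the extracellular matrix and also inhibits ADAM17, and Timp4 is best known from heart, brain and fat. Bleomycin damages the lung epithelium and causes inflammation and scarring. A locked nucleic acid (LNA) oligonucleotide is a modified antisense strand used to block a microRNA. The mature mouse miR-199a-5p named in the LNA, from RefSeq on GRCm38.p6, is shown 5′ to 3′ with bases 2 to 8, the seed that pairs with targets, in capitals; it is encoded at chr1:162217844-162217866 on the plus strand and at chr9:21496537-21496559 on the minus strand.
mmu-miR-199a-5p: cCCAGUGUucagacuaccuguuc

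The arrays differed in transcripts of heart muscle, fat, thymocytes and squamous epithelium. Whether these came from within the lung or from neighbouring tissue was not tested. Heart muscle transcripts, as the mean of 16 genes relative to the average of all arrays on the log2 scale, lay between 0.05 and 0.60 on the bleomycin with LNA-miR-199a-5p arrays and between -0.55 and -0.04 on the bleomycin with LNA-control arrays, so these 2 groups did not overlap. They lay between -0.12 and 0.22 in PBS with LNA-miR-199a-5p and between -0.19 and -0.06 in PBS with LNA-control. Fat transcripts (14 genes) lay between 0.44 and 0.74 in bleomycin with LNA-miR-199a-5p, between -0.39 and 0.00 in bleomycin with LNA-control, between -1.23 and 0.73 in PBS with LNA-miR-199a-5p and between -1.22 and -0.01 in PBS with LNA-control. Thymocyte transcripts were high in bleomycin with LNA-control on replicates 1 and 4, at 1.85 and 2.65, and between -0.46 and -0.09 on all arrays of the other 3 groups. Squamous epithelium transcripts (8 genes) lay between 0.65 and 1.47 in bleomycin with LNA-miR-199a-5p and between -0.27 and 0.65 in bleomycin with LNA-control. In PBS with LNA-miR-199a-5p they were at -4.76 on replicate 3, against 0.32 and 1.01 on the other arrays of that group, and they lay between -1.41 and 0.05 in PBS with LNA-control; none of the 8 genes was called in the differences between LNAs or between bleomycin and PBS, and their part in the results was not tested. In whole lung, fewer cells of a type and less RNA per cell cannot be told apart.

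Of the 4 genes, Timp1 had the largest change after bleomycin with LNA-control. Its log2 intensities in bleomycin with LNA-control were 12.92, 12.16, 11.37, 12.81 and 13.10 for replicates 1 to 5, against 9.94, 9.97 and 9.81 in PBS with LNA-control. Every bleomycin array lay above every PBS array, and the lowest of them, replicate 3, was still more than 1 log2 unit above PBS. Timp1 rose by 2.57 ± 0.34 (SE) on the log2 scale, 5.92-fold, with limma's adjusted p = 7.23e-05. The exact permutation test gave p = 0.0357, the smallest value that 56 arrangements allow. Only 9 of the 20863 genes had a larger increase in this comparison. In the same comparison 17.5% of all genes passed the threshold, an adjusted p under 0.05 over all genes (9.60% upwards and 7.90% downwards), and 1 of the 4 TIMPs did. Groups without overlap were seen for 25.3% of genes.

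With LNA-miR-199a-5p the Timp1 level after bleomycin was lower. Replicates 1 to 5 of bleomycin with LNA-miR-199a-5p had 10.13, 11.17, 11.45, 10.32 and 10.51, against 9.93, 10.02 and 10.15 in PBS with LNA-miR-199a-5p. Replicates 2 and 3 stood at least 1 unit above the PBS arrays, whereas replicate 1 lay within the PBS range. The difference was 0.68 ± 0.34 (95% interval -0.03 to 1.39), which did not pass limma's threshold (adjusted p = 0.187; 13.4% of genes called, 7.31% upwards). Between the bleomycin groups Timp1 averaged 10.71 ± 0.57 with LNA-miR-199a-5p and 12.47 ± 0.71 with LNA-control (SD, n = 5 each). It was lower by 3.38-fold, -1.76 ± 0.29 on the log2 scale, with limma's adjusted p = 0.000518, in a comparison that called 24.9% of genes, 13.4% upwards and 11.4% downwards. Only 17 genes had a more negative difference. The groups overlapped by 1 array on each side, since replicate 3 of LNA-miR-199a-5p, at 11.45, exceeded replicate 3 of LNA-control, at 11.37. The exact permutation p was 0.0159 against a smallest possible 0.00794.

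In PBS lungs Timp1 averaged 10.04 ± 0.11 with LNA-miR-199a-5p and 9.91 ± 0.09 with LNA-control (SD, n = 3 each). The difference of 0.13 ± 0.38 (95% interval -0.67 to 0.93) was not called (limma adjusted p = 0.975; 0.0479% of genes called), and the exact permutation p was 0.300, where 3 against 3 arrays allow none below 0.1. The bleomycin response itself differed between the LNAs by -1.89 ± 0.48, with limma's adjusted p = 0.0275, where 7.01% of genes passed. That call was lost when any of 8 of the 16 arrays was left out, with values between -2.16 and -1.73, and it was lost without the 2 thymocyte-rich arrays (-1.62, adjusted p = 0.104). Among those 8 was the PBS array lowest for squamous epithelium (LNA-miR-199a-5p, replicate 3), without which the value was -1.83 (adjusted p = 0.0540). Without those 2 arrays the change after bleomycin with LNA-control was 2.30 (adjusted p = 0.00126) and the difference between the bleomycin groups was -1.49 (adjusted p = 0.0108). From high to low, the order of Timp1 was bleomycin with LNA-control, bleomycin with LNA-miR-199a-5p, PBS with LNA-miR-199a-5p and PBS with LNA-control, and neither of the last 2 steps passed the test. Bleomycin with LNA-miR-199a-5p differed from PBS with LNA-control by 0.81 ± 0.34 (limma adjusted p = 0.116). These 2 groups did not overlap, as 25.8% of genes did not. The difference was called in 1 of the 16 fits that left out an array.

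**Figure D1:**
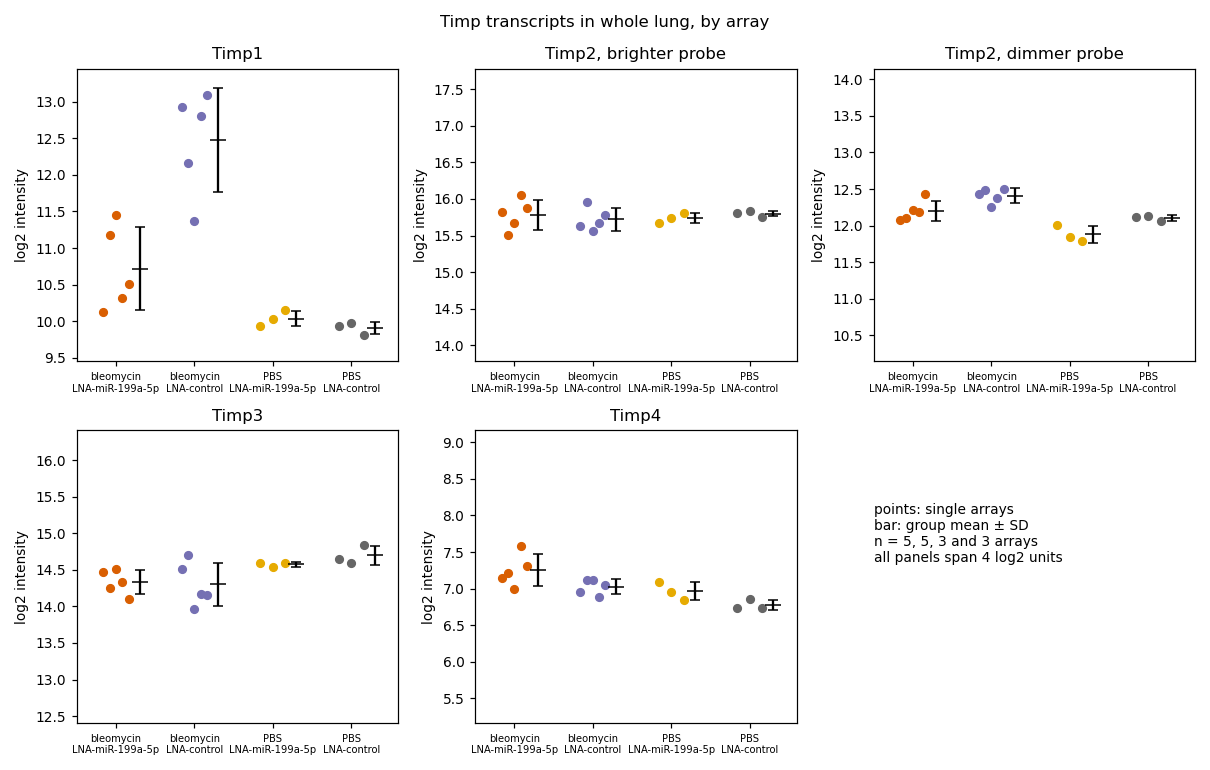
Log2 intensity of each Timp probe (y axis, 4 log2 units in every panel) by group (x axis), with 1 point per array and a bar for the group mean ± SD; n = 5, 5, 3 and 3 arrays from left to right. Timp1 is spread from 11.37 to 13.10 in bleomycin with LNA-control and from 10.13 to 11.45 in bleomycin with LNA-miR-199a-5p, and both PBS groups lie close to 10, whereas Timp2, Timp3 and Timp4 move little on the same scale.

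Timp1 followed the heart muscle transcripts inversely within the groups. In bleomycin with LNA-control, the array with the lowest Timp1 (replicate 3, 11.37) had the highest heart level (-0.04), and the array with the highest Timp1 (replicate 5, 13.10) had the lowest (-0.55). In bleomycin with LNA-miR-199a-5p, replicate 3 likewise combined the highest Timp1 (11.45) with the lowest heart level (0.05). Over deviations from the group means of all 16 arrays, Pearson's r was -0.872 and Spearman's rho -0.868. Within-group permutation gave p = 0.0004 and 0.00035, and 0.0032 and 0.0028 after adjustment over the 8 relations of the 4 genes with heart and fat. Without the 2 arrays farthest from the median heart level r was -0.887. With fat transcripts Timp1 had r = -0.0853 and rho = -0.218 (permutation p = 0.378 and 0.316, adjusted p = 0.504 and 0.619).

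**Figure D2:**
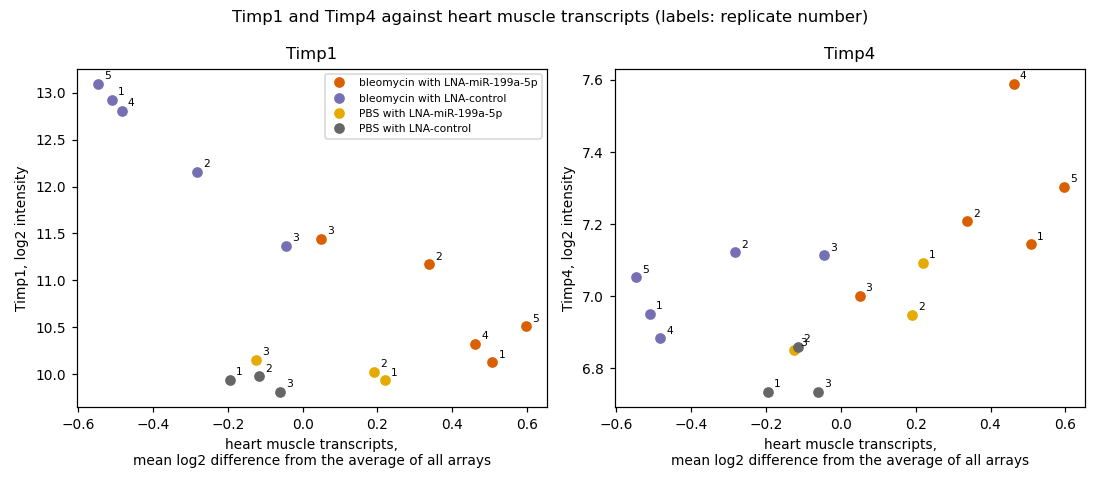
Log2 intensity of Timp1 (left) and Timp4 (right) against the mean log2 level of 16 heart muscle genes relative to the average of all arrays (x axis); each point is an array, coloured by group and labelled with its replicate number. Timp1 slopes down inside both bleomycin groups, which share no heart level, and replicate 3 of each group nearly meets the other at 11.45 and 11.37.

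With heart and fat transcripts as covariates in the limma fit, Timp1 rose after bleomycin under both LNAs, by 1.30 ± 0.19 with LNA-miR-199a-5p (adjusted p = 0.00316) and by 1.82 ± 0.20 with LNA-control (adjusted p = 4.48e-05). The difference between the bleomycin groups was then 0.07 ± 0.29 (adjusted p = 0.967) and that of the bleomycin response -0.52 ± 0.29 (adjusted p = 0.556). The slope of Timp1 on heart transcripts in that fit was -2.63 ± 0.35 (adjusted p = 0.00452). With fat alone, the difference between the bleomycin groups was -1.69 ± 0.35 (adjusted p = 0.0052). The fit with both heart and fat left 119 genes called between the bleomycin groups, against 5188 without covariates and 3349 with fat alone. Without covariates all 16 heart genes were higher in bleomycin with LNA-miR-199a-5p. Because the 2 bleomycin groups share no heart level and no fat level, the LNA cannot be told apart from either in this comparison. The difference with fat alone therefore also depends on the fitted slope. Heart levels of bleomycin and PBS arrays also overlapped little. With LNA-control no bleomycin array lay within the PBS range of -0.19 to -0.06. With LNA-miR-199a-5p only replicate 3 of bleomycin, at 0.05, lay within the PBS range of -0.12 to 0.22. The rises of 1.82 and 1.30 therefore depend on the fitted slope.

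**Figure D3:**
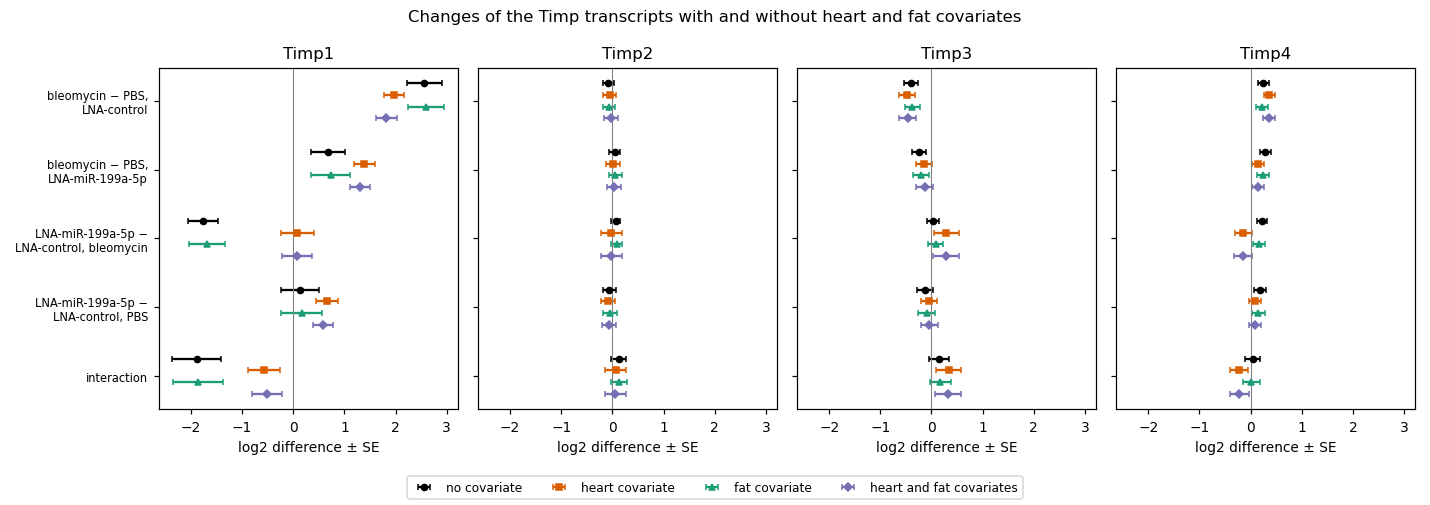
Log2 differences ± SE from limma (x axis) for each Timp gene in 5 comparisons (y axis), without covariates and with heart, fat or both as covariates, all from 16 arrays. For Timp1 the difference between the bleomycin groups lies at -1.76 without covariates and at 0.07 with both, while the change after bleomycin with LNA-control lies at 2.57 and 1.82.

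The macrophage and scar fibroblast lists moved the same way as Timp1. All 10 macrophage genes listed rose after bleomycin with LNA-control and all 10 were lower in bleomycin with LNA-miR-199a-5p than with LNA-control. Their mean level lay between -0.35 and -0.21 in bleomycin with LNA-miR-199a-5p, between 0.96 and 1.47 in bleomycin with LNA-control, between -0.78 and -0.67 in PBS with LNA-miR-199a-5p and between -0.98 and -0.88 in PBS with LNA-control. Of 10 genes of scar fibroblasts 9 rose with LNA-control and 10 were lower with LNA-miR-199a-5p in bleomycin lungs; their mean level lay between -0.39 and -0.23 in bleomycin with LNA-miR-199a-5p, between 0.13 and 1.01 in bleomycin with LNA-control, between -0.38 and -0.28 in PBS with LNA-miR-199a-5p and between -0.40 and -0.28 in PBS with LNA-control. The array with the lowest Timp1 in bleomycin with LNA-control, replicate 3, was also lowest for both lists. Other lists moved the opposite way: after bleomycin with LNA-control, 6 of 6 platelet genes, 5 of 8 endothelial genes and 5 of 8 genes of resident lung fibroblasts fell, and 5, 7 and 7 of them were higher in bleomycin with LNA-miR-199a-5p than with LNA-control. With heart and fat as covariates, between the bleomycin groups 6 of 10 macrophage genes were lower, and no gene of the other 4 lists was called. Without the thymocyte-rich arrays 10 macrophage and 7 scar fibroblast genes were lower there, and 2 platelet, 6 endothelial and 3 resident fibroblast genes were higher. Without covariates and with all arrays, 17.5% of all genes were called after bleomycin with LNA-control and 24.9% between the bleomycin groups. Between the bleomycin groups, 0.57% of all genes were called with heart and fat as covariates and 11.3% without the thymocyte-rich arrays. The part of these cells in the Timp1 values was not tested.

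The genes most like Timp1 were sought among 10430 genes above the median intensity. Over the 16 arrays they were Ms4a6d (r = 0.977), the thymidine kinase Tk1 (0.976), Rab3il1 (0.974), the cyclin Ccna2 (0.971) and the nucleotide receptor P2ry6 (0.969). Over deviations from the group means, which leave out the differences between groups, they were the acute-phase gene Saa3 (0.965), the monocyte chemokine Ccl2 (0.947), the histone H2az1 (0.938), the aggrecanase Adamts4 (0.927) and Serpina3g (0.923). These are descriptions over arrays that share groups. Saa3 differed from Timp1 in its group means: it changed by 2.84 after bleomycin with LNA-control, but by -0.12 between the bleomycin groups.

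The RefSeq promoter window of Timp1, 250 bases before to 50 after the start on GRCm38.p6, is shown with that of Timp4, since these members had a called difference on the probe used. Both were searched on both strands for AP-1 (TGAGTNA), ETS (AGGAAG), SP1 (GGGCGG), STAT (TTCNNNGAA) and the TATA box (TATAAA), and matches, on either strand and with no overlaps, are in capitals. Timp1 lies at chrX:20869916-20870215 on the plus strand and Timp4 at chr6:115252156-115252455 on the minus strand, each written 5′ to 3′ along the gene.
Timp1 promoter: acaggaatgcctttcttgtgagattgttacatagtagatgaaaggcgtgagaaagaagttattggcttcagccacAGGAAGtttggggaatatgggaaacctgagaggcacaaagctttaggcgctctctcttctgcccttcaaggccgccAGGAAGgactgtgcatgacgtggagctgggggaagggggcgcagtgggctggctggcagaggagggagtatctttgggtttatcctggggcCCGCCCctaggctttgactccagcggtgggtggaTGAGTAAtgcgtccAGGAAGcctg
Timp4 promoter: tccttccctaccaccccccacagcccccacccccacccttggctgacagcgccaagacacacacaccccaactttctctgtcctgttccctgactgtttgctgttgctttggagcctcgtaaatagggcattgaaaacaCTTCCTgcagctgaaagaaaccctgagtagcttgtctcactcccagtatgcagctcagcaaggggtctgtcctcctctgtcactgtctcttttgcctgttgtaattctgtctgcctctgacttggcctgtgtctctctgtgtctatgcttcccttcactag

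Timp1 had an AP-1 match with its first base at 27 after the start, 3 ETS matches at -175, -99 and 41, and an SP1 match at -8. AP-1 factors, dimers of Fos and Jun proteins, and ETS factors are known regulators of Timp1 transcription. The AP-1 letters occurred in 14.7%, the ETS letters in 35.4% and the SP1 letters in 35.7% of 32851 windows of the same length. Timp4 had 1 ETS match at -111, Timp2 had 1 SP1 match at -37, and Timp3 had an ETS match at -204 and SP1 matches at -15 and 14. No window had a STAT or TATA match, letters found in 8.30% and 13.6% of all windows. GC content was 55% for Timp1, 68.7% for Timp2, 67.0% for Timp3 and 53.3% for Timp4, against a median of 52.7%. A match describes letters and is not evidence of binding.

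Timp2 was measured by a pair of probes that did not behave alike. On the brighter probe, replicates 1 to 5 of bleomycin with LNA-miR-199a-5p had 15.82, 15.51, 15.67, 16.05 and 15.88, those of bleomycin with LNA-control 15.63, 15.96, 15.56, 15.67 and 15.79, the PBS arrays with LNA-miR-199a-5p 15.68, 15.74 and 15.80, and those with LNA-control 15.81, 15.83 and 15.76. The groups overlapped, and the differences were -0.08 ± 0.11 after bleomycin with LNA-control (limma adjusted p = 0.707), 0.04 ± 0.11 with LNA-miR-199a-5p (0.826) and 0.06 ± 0.09 between the bleomycin groups (0.666). For bleomycin with LNA-control the 95% interval was -0.31 to 0.15. The group means, from 15.80 in PBS with LNA-control and 15.78 in bleomycin with LNA-miR-199a-5p down to 15.74 in PBS with LNA-miR-199a-5p and 15.72 in bleomycin with LNA-control, held no neighbours that differed beyond their spread.

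On the dimmer probe, bleomycin with LNA-miR-199a-5p had 12.07, 12.11, 12.21, 12.19 and 12.43, and PBS with LNA-miR-199a-5p 12.01, 11.84 and 11.79. Bleomycin with LNA-control had 12.44, 12.48, 12.25, 12.37 and 12.50, and PBS with LNA-control 12.11, 12.13 and 12.06. Within each LNA the bleomycin arrays all lay above the PBS arrays, where 20.7% of all genes had no overlap with LNA-miR-199a-5p and 25.3% with LNA-control. This probe rose after bleomycin by 0.32 ± 0.09 with LNA-miR-199a-5p (1.25-fold, limma adjusted p = 0.0259) and by 0.31 ± 0.09 with LNA-control (1.24-fold, adjusted p = 0.0215), comparisons that called 13.4% and 17.5% of genes. Between the bleomycin groups it differed by -0.21 ± 0.08 (adjusted p = 0.0555), short of the threshold. In PBS lungs the LNA difference of this probe was -0.22 ± 0.10 (limma adjusted p = 0.641). There every LNA-miR-199a-5p array lay below every LNA-control array, and 18.1% of genes separate these groups. The interaction on this probe was 0.01 ± 0.12 (limma adjusted p = 0.96). The 2 probes' changes differed from each other after bleomycin with LNA-control by 0.39 ± 0.11 (limma adjusted p = 0.0212; exact permutation p = 0.0357, the smallest possible) and between the bleomycin groups by -0.27 ± 0.09 (adjusted p = 0.0469). Which stretch of the transcript each probe reads is not given in the sources used here, so the change of Timp2 has no settled direction.

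Timp3 showed small decreases that did not pass the test. It had 14.47, 14.25, 14.51, 14.33 and 14.10 in bleomycin with LNA-miR-199a-5p, 14.51, 14.70, 13.97, 14.17 and 14.16 in bleomycin with LNA-control, 14.59, 14.53 and 14.60 in PBS with LNA-miR-199a-5p, and 14.65, 14.60 and 14.84 in PBS with LNA-control. Replicate 2 of bleomycin with LNA-control lay within the PBS range and the other 4 lay below it. The difference after bleomycin with LNA-control was -0.40 ± 0.14, with limma's adjusted p = 0.0600. It was called in 2 of the 16 fits that left out an array, among them that without this replicate, at -0.50 (adjusted p = 0.00902). It was also called when dim genes were left out of the adjustment (-0.40, adjusted p = 0.0449). With LNA-miR-199a-5p it was -0.24 ± 0.14 (adjusted p = 0.255), although all 5 bleomycin arrays lay below all 3 PBS arrays, a separation shown by 20.7% of genes. The bleomycin groups differed by 0.03 ± 0.12 (adjusted p = 0.873; 95% interval -0.22 to 0.29). With heart and fat as covariates these 3 differences were -0.46 ± 0.17 (adjusted p = 0.109), -0.13 ± 0.17 (0.692) and 0.29 ± 0.25 (0.754). Timp3 was lower in bleomycin with LNA-miR-199a-5p than in PBS with LNA-control on every array, with a difference of -0.36 ± 0.14 (adjusted p = 0.0874). That difference ranged from -0.41 to -0.18 over 27 alternatives. It was called when 1 of the 16 arrays was left out (limma adjusted p = 0.0455). Timp3 was also lower in PBS with LNA-miR-199a-5p than in PBS with LNA-control on every array. This difference was -0.12 ± 0.15 (adjusted p = 0.926), and 18.1% of genes separate these groups. The order ran from PBS with LNA-control through PBS and bleomycin with LNA-miR-199a-5p to bleomycin with LNA-control, and no neighbours in it passed the test.

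Timp4 was dim, with a mean below the median over genes, and the files hold no detection flag. Its values were 7.14, 7.21, 7.00, 7.59 and 7.30 in bleomycin with LNA-miR-199a-5p, 6.95, 7.12, 7.11, 6.88 and 7.05 in bleomycin with LNA-control, 7.09, 6.95 and 6.85 in PBS with LNA-miR-199a-5p, and 6.73, 6.86 and 6.73 in PBS with LNA-control. All bleomycin arrays of both LNAs lay above the 3 arrays of PBS with LNA-control, a separation that 25.8% of all genes had for LNA-miR-199a-5p and 25.3% for LNA-control. Bleomycin with LNA-miR-199a-5p was higher than PBS with LNA-control by 0.47 ± 0.11, 1.39-fold, with limma's adjusted p = 0.0111 (14.6% of genes called), and the exact permutation p of 0.0357 was the smallest possible. The single steps did not pass: 0.29 ± 0.11 after bleomycin with LNA-miR-199a-5p (adjusted p = 0.0886), 0.25 ± 0.11 after bleomycin with LNA-control (0.138), 0.22 ± 0.09 between the bleomycin groups (0.0932) and 0.19 ± 0.12 between the PBS groups (0.806). When the bleomycin array at 7.00 (LNA-miR-199a-5p, replicate 3), the lowest for heart in its group, was left out, the step after bleomycin with LNA-miR-199a-5p was called at 0.35 (adjusted p = 0.0431) and that between the bleomycin groups at 0.29 (adjusted p = 0.0336). Bleomycin with LNA-control and PBS with LNA-miR-199a-5p, the middle neighbours in the order, differed by 0.06 ± 0.11 (adjusted p = 0.783; 17.3% of genes called).

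Timp4 leaned towards the heart transcripts, with r = 0.601 and rho = 0.640 over deviations from group means, which did not hold after adjustment (permutation p = 0.0435 and 0.0283, adjusted p = 0.174 and 0.113). Without the 2 farthest arrays r was 0.674. With heart and fat as covariates the 1.39-fold difference became 0.22 ± 0.15 on the log2 scale (limma adjusted p = 0.526). The 2 groups compared share no heart level and no fat level, so that value depends on the fitted slopes. Group and tissue transcripts cannot be told apart there. Leaving out PBS with LNA-control replicate 3 also lost the call of this difference (0.45, adjusted p = 0.0668). Genes most like Timp4 over the 16 arrays were the peptidase Thop1 (r = 0.939), Rnf208 (0.938), the purine enzyme Adsl (0.923), the fat-cell regulator Pparg (0.923) and Neu2 (0.910). Over deviations from group means they were Iqce (0.897), Rnf208 (0.896), Thop1 (0.892), the muscle filament gene Des (0.892) and Aox1 (0.891).

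The 5 genes most like Timp2 over the 16 arrays were Cpd (r = 0.874), Ganc (0.824), Rnf166 (0.821), Gm6557 (0.816) and Dym (0.810). Those most like Timp3 were Sfswap (0.937), Lhx6 (0.897), Krt222 (0.894), Zfp592 (0.887) and Tacr2 (0.885). Over deviations the first was Eif3b for Timp2 (0.914) and Sfswap for Timp3 (0.893). Neither gene's relation to heart or fat passed adjustment (heart r = 0.136 for Timp2 and -0.311 for Timp3, adjusted permutation p = 0.695 and 0.504).

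Among the proteases that TIMPs inhibit, the matrix metalloproteinases moved in both directions. Of 23 measured, 7 rose and 1 fell after bleomycin with LNA-control (17.5% of all genes called), with a median of 0.05 on the log2 scale against 0.00 over all genes. In bleomycin lungs 3 were higher and 6 lower with LNA-miR-199a-5p than with LNA-control (24.9% of all genes called). With heart and fat as covariates these counts became 6 and 1 after bleomycin with LNA-control (9.31% of all genes called). Between the bleomycin groups they became 1 and 0 (0.57% of all genes called). Mmp12, the macrophage elastase, rose by 3.00 ± 0.25 after bleomycin with LNA-control and was lower, at -2.51 ± 0.21, with LNA-miR-199a-5p in bleomycin lungs. Its level averaged 6.30 ± 0.59 in bleomycin with LNA-miR-199a-5p and 8.81 ± 0.25 in bleomycin with LNA-control (SD, n = 5 each). Mmp2, the gelatinase that Timp2 helps to activate, changed by 1.73 ± 0.17 and -1.08 ± 0.15 in those comparisons, and Mmp14, its membrane-bound activator, by 1.02 ± 0.15 and -0.65 ± 0.13. Mmp19 changed by 1.16 ± 0.16 and -1.17 ± 0.14. Mmp9, a gelatinase of leukocytes, went the other way, with -0.78 ± 0.11 and 0.99 ± 0.09, all with limma's adjusted p between 7.35e-07 and 0.00214. These comparisons share the bleomycin with LNA-control arrays. With LNA-miR-199a-5p, 1 of the 23 rose after bleomycin, where 7.31% of all genes did.

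Of 12 ADAM and ADAMTS proteases sensitive to TIMPs, 3 rose and 1 fell after bleomycin with LNA-control, against 17.5% of all genes called. In bleomycin lungs 1 was higher and 5 were lower with LNA-miR-199a-5p, against 24.9% of all genes; none of the 12 was called there with heart and fat as covariates, in a fit that called 119 genes in all. Adamts4 rose by 1.89 ± 0.32, Adamts2, the procollagen N-proteinase, by 0.66 ± 0.12 and Adam15 by 0.43 ± 0.10, and Adamts5 fell by 0.45 on the log2 scale. Adam17, the TNF-converting enzyme that Timp3 inhibits, differed by 0.21 ± 0.09 (limma adjusted p = 0.123).

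**Figure D4:**
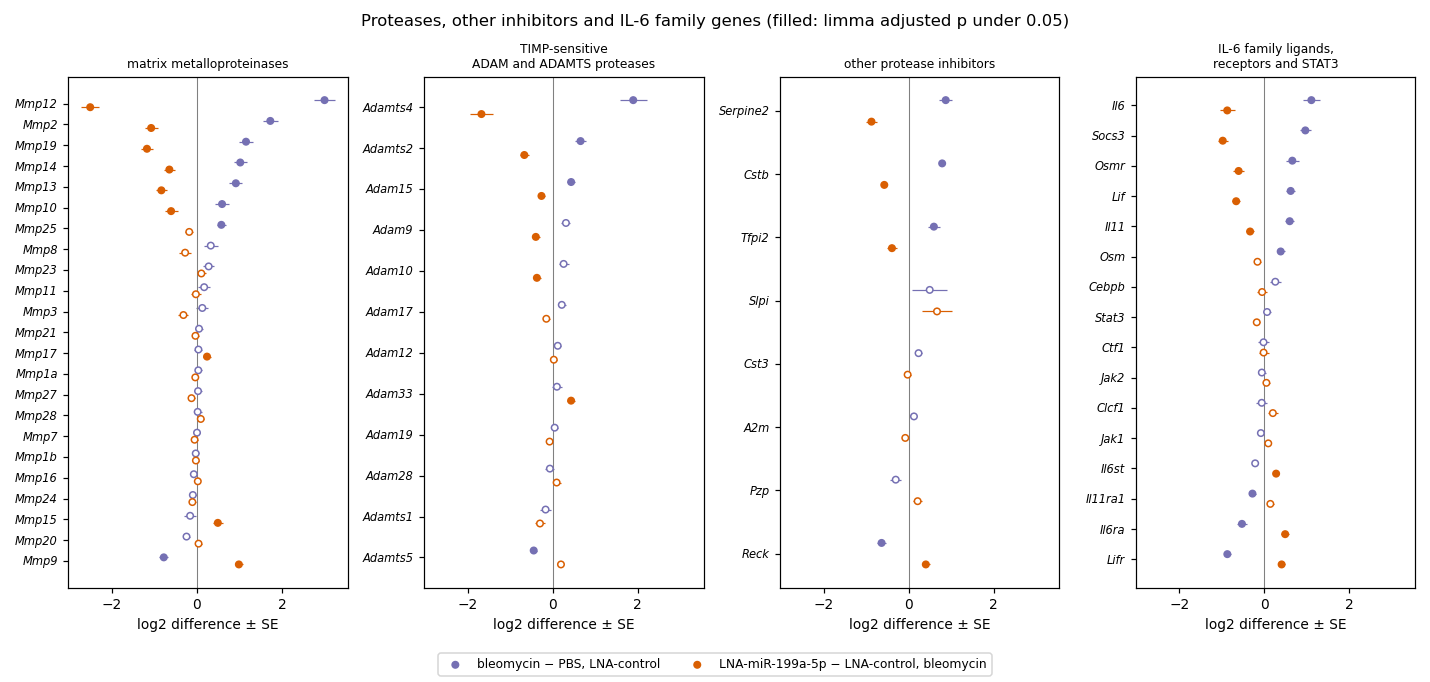
Log2 differences ± SE from limma (x axis) of metalloproteinases, ADAM and ADAMTS proteases, other protease inhibitors and IL-6 family genes, for bleomycin minus PBS with LNA-control and for LNA-miR-199a-5p minus LNA-control in bleomycin lungs, which share the bleomycin with LNA-control arrays; filled points have an adjusted p under 0.05. Mmp12 lies at 3.00 and -2.51, and Mmp9 at -0.78 and 0.99.

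Of 8 receptors and clearance partners of TIMPs, 2 rose and 1 fell after bleomycin with LNA-control, a comparison in which 17.5% of all genes were called. Cd63, the tetraspanin through which Timp1 acts on cells, rose by 0.62 ± 0.09 and was lower, at -0.58 ± 0.07, with LNA-miR-199a-5p in bleomycin lungs. Cd44 rose by 0.40 ± 0.10. Kdr, the VEGF receptor that Timp3 blocks, fell by 0.95 and was higher by 0.47 ± 0.09 with LNA-miR-199a-5p in bleomycin lungs. Of 8 other protease inhibitors measured, 3 rose and 1 fell: Serpine2 (0.87 ± 0.16), cystatin B, Cstb (0.79 ± 0.07) and Tfpi2 (0.60 ± 0.15) rose, and Reck, a membrane-anchored inhibitor of metalloproteinases, fell by 0.63. Among 9 activators of metalloproteinases, 4 rose and 1 fell, with Ctsb, cathepsin B, at 1.08 ± 0.09, Plat, the tissue plasminogen activator, at 0.55 ± 0.11, Plaur, the urokinase receptor, at 0.42 ± 0.11 and Ctsg, cathepsin G, at -0.54 ± 0.14. No gene of these 3 lists was called between the bleomycin groups with heart and fat as covariates, where 0.57% of all genes were.

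Of 16 genes of the IL-6 family, whose STAT3 signal is known to induce Timp1, 6 rose and 3 fell after bleomycin with LNA-control (17.5% of all genes called), and 3 were higher and 5 lower with LNA-miR-199a-5p in bleomycin lungs (24.9% called). With heart and fat as covariates 5 rose and 1 fell after bleomycin with LNA-control (9.31% of all genes called). None of the 16 was called between the bleomycin groups in that fit (0.57% of all genes called). Socs3, a target and brake of the pathway, rose by 0.96 ± 0.13 and was lower, at -0.98 ± 0.12, and the ligand Lif changed by 0.62 ± 0.10 and -0.66 ± 0.09. The ligand Il11 rose by 0.60 ± 0.10, and the receptor Lifr fell by 0.87. Of 13 AP-1 and other factors of Timp1 transcription, 3 rose and 2 fell after bleomycin with LNA-control (17.5% of all genes called). With heart and fat as covariates 1 rose and 3 fell (9.31% of all genes called). Without covariates Fosl1 rose by 0.49 ± 0.10 and Runx1 by 0.40 ± 0.12, whereas Jun fell by 0.70 and Ets2 fell by 0.42. In PBS lungs LNA-miR-199a-5p moved none of the genes of these lists past limma's threshold, which 0.0479% of all genes passed. The lists were chosen with earlier results of these data known, and their counts are descriptions.

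Timp1, Timp3 and Timp4 lie inside the genes Syn1, Syn3 and Syn2 of the synapsins, neuronal vesicle proteins, by RefSeq on GRCm38.p6. Syn1 and Syn2 run on the opposite strand to the Timp gene inside them. Syn1 differed by 0.31 ± 0.13 after bleomycin with LNA-control (limma adjusted p = 0.115), where Timp1 rose by 2.57. Syn2 differed by 0.25 ± 0.09 (adjusted p = 0.0709) and was lower, at -0.34 ± 0.08, with LNA-miR-199a-5p in bleomycin lungs (adjusted p = 0.00528). Syn3 differed by -0.30 ± 0.68 (adjusted p = 0.834), with a spread of 1.61 (SD, n = 3) among the PBS with LNA-control arrays.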

How the data were processed

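Whole-lung RNA was hybridised to 1-colour Agilent arrays, 0.2 ug a sample labelled with Cy3, per the labels' protocols. The deposited values are log2 intensities that the authors prepared with limma (no version), per the submitters' processing notes; they were already quantile normalized. Background correction is not given in the sources used here. Of 62976 spots 31465 had 1 gene symbol in the platform annotation and 31511 had none. RefSeq matched 29050 probes and changed the symbol of 2933 of them. For 6086 genes with several probes the one with the highest mean was kept, leaving 20863 genes, with no filter. Arrays have no read depth; how many there are limits the precision.

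One limma model (3.58.1, R 4.3.3) of 4 group means was fitted with lmFit and eBayes to 16 arrays, with Benjamini-Hochberg adjustment over all genes of a contrast; genes were called at an adjusted p under 0.05. Tests were two-sided, and the code was tested on simulated data. Exact permutation tests over arrays stand beside it, and relations to heart and fat transcripts used 100000 within-group permutations. Between the PBS groups, deviations from group means of same-numbered arrays correlated at 0.411, 0.108 and 0.497. Over 20 same-numbered pairs the range was -0.373 to 0.497, and 5 lay above 0.1. These 5 included 0.116 and 0.324 for replicates 1 and 2 of PBS against bleomycin with LNA-miR-199a-5p. The main model and the exact permutation tests left replicate numbers out. Alternatives were another scaling, dim filter, probe averaging, covariates (heart, fat, RIN), a replicate block, a trended prior, array weights, the compared groups only, and leaving out arrays; the dimmer Timp2 probe and the gene-list counts with heart and fat or without the thymocyte-rich arrays were added after seeing the data. Members and lists were chosen with earlier results of these data known. From each list the text names up to 4 genes with the smallest p for bleomycin with LNA-control and 2 more by the LNA-miR-199a-5p difference in bleomycin lungs, with Mmp2, Mmp9, Mmp14, Adam17 and the synapsins always, and the 5 genes most like each Timp gene.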

Additional observations from a re-analysis of the deposited data

Results flagged for a closer look

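The change of Timp1 after bleomycin differed between the LNAs by -1.89 on the log2 scale (limma's test of the interaction, adjusted p = 0.0275): it was 0.68 with LNA-miR-199a-5p and 2.57 with LNA-control. No single array of the bleomycin groups stood apart for any of the 4 genes by Dixon's test, in 10 tests of groups of 5 arrays at a critical value of 0.71. That test does not measure how far a call depends on single arrays. The call of the Timp1 interaction was lost when any of 8 of the 16 arrays was left out. The heart transcripts did not overlap between the bleomycin groups, nor did those of fat, macrophages and scar fibroblasts. None of these can be told apart from the LNA there. With heart and fat as covariates the interaction was -0.52 (limma adjusted p = 0.556). Its cause was not tested.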

How the results depend on the processing

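Timp1 kept its increase after bleomycin with LNA-control in 27 of 27 alternatives (1.82 to 2.84), and its lower level with LNA-miR-199a-5p in bleomycin lungs in 25 of 27; with heart as covariate that difference was 0.082, with heart and fat 0.069. With heart the Timp1 change after bleomycin with LNA-miR-199a-5p was 1.39 and against PBS with LNA-control 2.05, with heart and fat 1.30 and 1.89, all then called. Bleomycin with LNA-miR-199a-5p shared few heart levels with PBS of the same LNA and none with PBS with LNA-control. These calls therefore depend on the fitted slope. The Timp1 interaction lost its call with heart (-0.57), heart and fat (-0.52), RIN (-1.79), the replicate block (-1.89, adjusted p = 0.0673) and without the thymocyte-rich arrays (-1.62). RIN, the RNA integrity number, averaged 9 (8 to 10) in bleomycin with LNA-miR-199a-5p and 8.2 (7 to 9) in bleomycin with LNA-control. In both PBS groups it averaged 8.33 (8 to 9). Array weights called Timp1 in bleomycin with LNA-miR-199a-5p against PBS with LNA-control (0.87) and Timp3 after bleomycin with LNA-control (-0.36), as the dim filter did (-0.40). Timp4 in bleomycin with LNA-miR-199a-5p against PBS with LNA-control lost its call with heart (0.23), fat (0.39), heart and fat (0.22) and the replicate block (0.43). These 2 groups share no heart or fat level, so the values with those covariates depend on the fitted slopes. With heart as covariate the Timp4 change after bleomycin with LNA-control was called (0.37). Differences that were not called changed sign. For Timp4 these were, with heart and with heart and fat, the difference between bleomycin groups (-0.14 and -0.14) and the interaction (-0.22 and -0.22), and the interaction without the thymocyte-rich arrays (-0.034). For Timp2 they were the mean over probes (0.11 after bleomycin with LNA-control, -0.072 between bleomycin groups, 0.042 for bleomycin with LNA-miR-199a-5p against PBS with LNA-control), heart (-0.019), heart and fat (-0.017) between bleomycin groups, fat (0.013) and RIN (0.0038) against PBS with LNA-control, and the replicate block (-0.017) and array weights (-0.0079) after bleomycin with LNA-miR-199a-5p. The dimmer Timp2 probe gave 0.31 after bleomycin with LNA-control, 0.32 after bleomycin with LNA-miR-199a-5p, -0.21 between bleomycin groups, and 0.10 in bleomycin with LNA-miR-199a-5p against PBS with LNA-control. The cause of these shifts was not tested.

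With each array left out in turn, Timp1 ranged from 2.41 to 2.84 after bleomycin with LNA-control, from 0.50 to 0.83 with LNA-miR-199a-5p, from -2.03 to -1.60 between the bleomycin groups, from -2.16 to -1.73 in the interaction and from 0.63 to 0.96 for bleomycin with LNA-miR-199a-5p against PBS with LNA-control. In the same 5 comparisons Timp2 ranged from -0.14 to -0.039, -0.023 to 0.11, -0.0041 to 0.13, 0.056 to 0.19 and -0.082 to 0.053; Timp3 from -0.50 to -0.31, -0.29 to -0.18, -0.050 to 0.13, 0.072 to 0.25 and -0.41 to -0.29; and Timp4 from 0.22 to 0.29, 0.20 to 0.35, 0.14 to 0.29, -0.048 to 0.10 and 0.39 to 0.54. In PBS lungs the LNA difference of each of the 4 genes kept its sign and stayed uncalled in all settings.

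Counts of called genes moved by over 1.5 times in places. After bleomycin with LNA-control 3651 genes were called, 1942 with heart and fat, 2429 with the block, 2258 without the thymocyte-rich arrays, 6713 with array weights and 2293 to 3984 with an array left out. After bleomycin with LNA-miR-199a-5p 2786 were called, 541 with heart and fat, 739 with heart, 1104 with fat, 1162 with RIN, 663 with the block, 271 with only the compared groups and 1186 to 3534 with an array left out. Between the bleomycin groups the 5188 became 119, 74, 3349 and 2981 with heart and fat, heart, fat and RIN, and 2356 without the thymocyte-rich arrays. The interaction called 1462, and 172, 119, 733, 947, 3862 and 525 with heart and fat, heart, RIN, the block, array weights and without those arrays, or 632 to 2215 with an array left out. For bleomycin with LNA-miR-199a-5p against PBS with LNA-control, 3037 became 358, 759, 234, 1615, 1209 and 4681 with heart and fat, heart, fat, RIN, the block and array weights, or 618 to 3618. In PBS lungs 10 became 22 with heart and fat, 3 with fat, the block or without the thymocyte-rich arrays, 394 with array weights, 2 to 121 with an array left out, and 0 by limma on those groups alone, where 2317 genes had an unadjusted p under 0.05.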
